A study of Mus musculus with 7 samples.

Results

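The 8 genes described here encode the matrix proteins of tooth enamel and dentin and the proteases that process enamel: Ambn, Enam, Amelx, Amtn, Odam, Mmp20, Klk4 and Dspp. They were picked by symbol, with their levels in these libraries already in view, from the 23235 gene symbols of the deposited tables, and all 8 have 1 entry in each table. The tables come from 7 libraries of cultured fetal mouse kidneys of strain C57BL/6. Of these, 3 carried activated beta-catenin and were E2-2 deleted, and 4 carried activated beta-catenin and were E2-2 wildtype. Beta-catenin carries the canonical Wnt signal into the nucleus, and its activation is shared by every library, so the comparison asks what differs when E2-2 is deleted as well. E2-2 is an E protein, a transcription factor of the basic helix-loop-helix class that binds short DNA motifs called E-boxes, and its mouse gene is Tcf4. Kidneys were taken at 10.5 days post coitum from dams injected with tamoxifen at 2 mg per 40 g of body weight on that day, and were cultured on membranes for 3 to 4 days in a medium with transferrin, insulin and selenium. The labels do not name the Cre driver, the activating allele, the deleted exons, the culture days of each library or whether kidneys were pooled.

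Enamel is laid down by ameloblasts, epithelial cells of the tooth, onto a scaffold of secreted proteins. Amelogenin (Amelx) makes up most of that scaffold, and ameloblastin (Ambn) and enamelin (Enam) are its less abundant partners in the secretory stage. The protease enamelysin (Mmp20) cuts these proteins as they are secreted, and kallikrein 4 (Klk4) degrades them when enamel matures. Amelotin (Amtn) and Odam belong to the maturation stage and to the seal between enamel and gum. Dspp encodes a precursor that odontoblasts, the mesenchymal cells of the tooth, cleave into the main non-collagen proteins of dentin. Ambn, Enam, Amelx, Amtn, Odam and Dspp descend from one family, the secretory calcium-binding phosphoproteins, to which the bone matrix genes Ibsp and Dmp1 also belong. In the fetal kidney these genes have no established role.

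The starts of the genes were compared first, because Ambn, Enam and Klk4 were high in the same libraries while Amelx, Amtn and Odam were hardly detected. RefSeq windows of 250 bases before the annotated start (GRCm38.p6) were at hand for 7 of the 8 genes, all but Dspp. In the 5 family members with a window, the last 150 bases each hold 1 extended CCAAT box, CCAATCA on either strand, shown in capitals. In Klk4 the capitals mark the E-boxes CAGGTG and CAGCTG, read on either strand.
Ambn (chr5:88455841-88455990, plus strand): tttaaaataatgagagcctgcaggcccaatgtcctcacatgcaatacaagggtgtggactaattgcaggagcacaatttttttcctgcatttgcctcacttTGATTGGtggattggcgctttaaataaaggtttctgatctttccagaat
Enam (chr5:88487825-88487974, plus strand): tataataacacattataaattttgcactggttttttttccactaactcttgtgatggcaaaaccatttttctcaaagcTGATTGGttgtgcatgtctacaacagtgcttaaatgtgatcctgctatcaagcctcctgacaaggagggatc
Amelx (chrX:169187210-169187359, minus strand): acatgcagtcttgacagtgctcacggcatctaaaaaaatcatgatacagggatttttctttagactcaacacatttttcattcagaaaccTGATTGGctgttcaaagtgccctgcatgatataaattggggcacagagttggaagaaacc
Amtn (chr5:88375958-88376107, plus strand): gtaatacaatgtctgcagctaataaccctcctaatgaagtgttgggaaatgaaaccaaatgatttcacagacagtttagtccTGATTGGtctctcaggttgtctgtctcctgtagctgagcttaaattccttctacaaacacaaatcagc
Odam (chr5:87884860-87885009, plus strand): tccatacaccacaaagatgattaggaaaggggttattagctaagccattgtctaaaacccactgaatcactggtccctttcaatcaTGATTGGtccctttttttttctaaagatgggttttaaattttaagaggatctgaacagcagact
Klk4 (chr7:43881010-43881159, plus strand): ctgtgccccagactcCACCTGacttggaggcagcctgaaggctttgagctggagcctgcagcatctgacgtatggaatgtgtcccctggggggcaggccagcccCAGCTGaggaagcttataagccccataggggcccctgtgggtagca

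The extended CCAAT box began 49 bases before the start in Ambn, 60 in Amelx, 64 in Odam, 68 in Amtn and 72 in Enam. Of 32817 windows of the same length over all genes, 7.22% held CCAATCA anywhere, and 1.74% held it with its first base 49 to 72 bases before the start. That range was taken from these 5 genes, so they lie in it by construction and nothing is read from the 1.74%. Among relatives, Ibsp had it at 56 bases and Mepe at 23, Spp1 at 48 and Dmp1 at 103 in 1 of their 2 windows each, and Sparc had none. The box lay at 49 and 72 bases in Ambn and Enam, with values above 0 in every library. It lay at 68 and 64 bases in Amtn and Odam, listed at 0 in every library. Any part of the box in these levels was not tested. The Tcf/Lef motif, searched as CTTTGAT or CTTTGAA, was found in Ambn at 52 and 229 bases and in Amelx at 50, and in 7.48% of all windows. The match at 52 bases in Ambn overlaps the CCAAT box by 4 letters. The E-box CAGGTG lay in Klk4 and Mmp20, at 135 and 40 bases, and in 17.2% of all windows; CAGCTG lay in Klk4 at 46 bases and in 13% of all windows. Any E-box, CANNTG, was present in 5 of the 7 windows against 66.2% of all windows. The plain CCAAT was in 33.8% of all windows, TATAAA, in Amelx, Enam and Mmp20, in 12.4%, TGTGGT, in Odam, in 14%, and TAATTG, in Ambn and Odam, in 7.17%. In all, these 9 motifs were searched on both strands, the CCAAT forms after the sequences had been read, and a match is a run of letters, not a shown binding site.

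**Figure D1:**
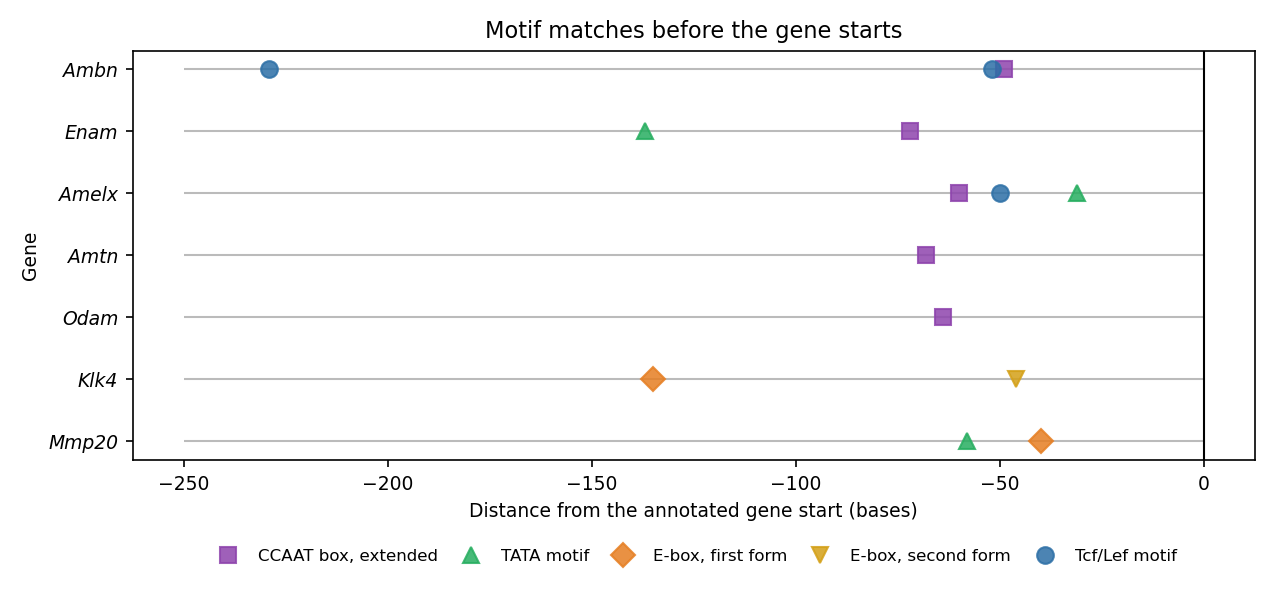
Motif matches in the 250 bases before the annotated starts of 7 genes; the horizontal axis is the distance from the start in bases, each symbol marks the first base of a match, and the E-box forms are CAGGTG (first) and CAGCTG (second). The extended CCAAT box lies between 49 and 72 bases before the start in the 5 family members.

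The libraries held an inferred 14.5 to 26.6 megafragments each, and levels are in FPKM, fragments per kilobase of transcript and per megafragment mapped. Fetal kidney genes were present in every library: none of the 20 listed was at 0. Their summed level was 571, 267 and 438 FPKM in E2-2 deleted replicates 1 to 3, against 491, 367, 522 and 660 FPKM in E2-2 wildtype replicates 1 to 4. In E2-2 deleted replicate 2, Six2, a factor of nephron progenitors, was at 2.69 FPKM, against 28.98 to 74.77 FPKM in the wildtype libraries. Tcf4 itself averaged 39.1 ± 4.85 FPKM in deleted libraries (SD, n = 3) and 43.7 ± 12.6 FPKM in wildtype libraries (SD, n = 4), so a whole-gene level does not check the deletion. The deposited names of E2-2 deleted replicate 3 and E2-2 wildtype replicates 3 and 4 begin with BM and those of the other 4 with BI. The meaning of the prefixes is not given, and values within each are printed below.

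The lowest E2-2 deleted library had more Ambn, Enam and Klk4 transcript than the highest E2-2 wildtype library, while Dspp and Mmp20 had higher means in deleted libraries with groups that overlapped. Amelx, Amtn and Odam were listed at or near 0. Together the 8 genes summed to 25.95, 35.1 and 42.3 FPKM in deleted replicates 1 to 3, against 15.2, 6.13, 2.81 and 0.769 FPKM in wildtype replicates 1 to 4. The groups did not overlap, and the wildtype libraries spanned a wider ratio than the deleted ones. The mean log2(FPKM + 1) of the 8 genes was 1.49 ± 0.23 in deleted libraries (SD, n = 3) and 0.54 ± 0.40 in wildtype libraries (SD, n = 4), a difference of 0.95 (0.54 within BI and 1.47 within BM). In bulk tissue, fewer cells of a type and less RNA per cell cannot be told apart. Since the genes were chosen with these values known, the genotype difference is described and was not tested. By limma across all 13469 genes with a mean of at least 1 FPKM, 0 genes passed an adjusted p of 0.05 (0%), and 605 had an unadjusted p under 0.05. Only Ambn, Klk4 and Dspp of the 8 met that mean; Enam, at 0.968 FPKM, was just below it. The unadjusted p was under 0.05 with a higher level in deleted libraries for 3.29% of those tested and with a lower level for 1.2%. All deleted libraries lay below all wildtype ones in 0 of the 8, 1.61% of the 22363 genes kept and 2.05% of those tested. They lay above all wildtype ones in 3 of the 8, in 2.85% of the genes kept and in 2.84% of those tested. As these values chose the genes, nothing is read from the 3. The same held for 3 of the 8 within BI and 8.12% of the genes kept, for 5 of the 8 within BM, where 1 deleted library meets 2 wildtype ones, and 32% of the genes kept, and for 4 of the 8 without wildtype replicate 1 and 4.6% of the genes kept.

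**Figure D2:**
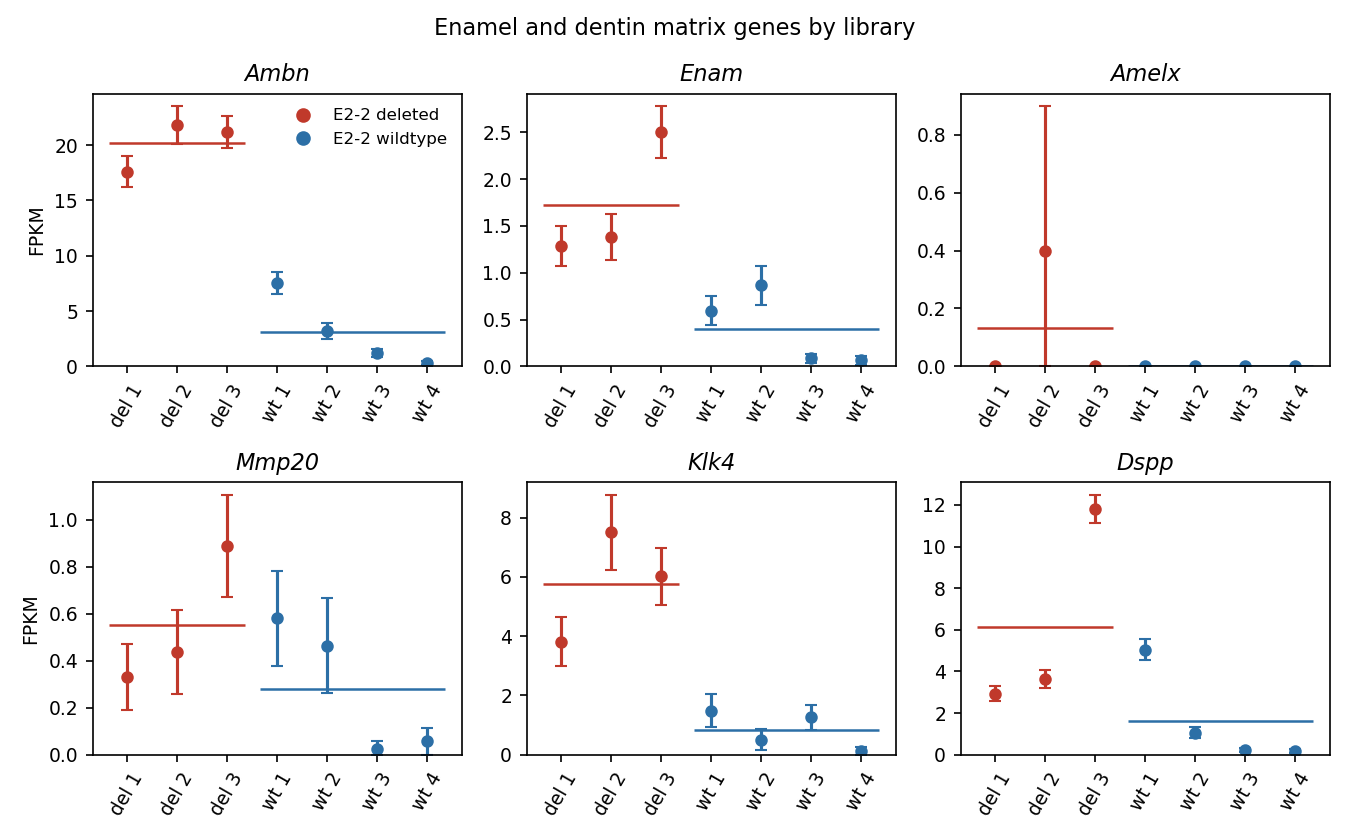
FPKM of 6 genes in each library, with E2-2 deleted (del) left of E2-2 wildtype (wt); points are libraries, bars the deposited interval of each estimate and horizontal lines the group means. Ambn, Enam and Klk4 do not overlap between the groups, Dspp and Mmp20 do, and Amelx is above 0 in 1 library; Amtn and Odam, at 0 throughout, are not drawn.

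Ambn was the most abundant of the enamel protein genes. Ambn (chromosome 5, 88885035 to 88897554 in the deposited tables, whose build is not given) had 17.6, 21.8 and 21.1 FPKM in deleted replicates 1 to 3, against 7.502, 3.22, 1.204 and 0.320 FPKM in wildtype replicates 1 to 4. The deleted libraries lay close together, while every wildtype library differed from the next by over 2-fold. The means were 20.2 ± 2.26 FPKM in deleted libraries (SD, n = 3) and 3.06 ± 3.20 FPKM in wildtype libraries (SD, n = 4), a 6.59-fold ratio and a difference of 2.72 in mean log2(FPKM + 1). The difference was 1.78 within BI and 3.70 within BM, and the ratio was 12.8 without wildtype replicate 1. The inferred fragments behind these values were 632, 647 and 855 in deleted libraries, against 231, 78, 52 and 12 in wildtype libraries.

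Enam, the neighbour of Ambn on chromosome 5 (88916999 to 88935074), followed it at a lower level. It had 1.28, 1.38 and 2.499 FPKM in deleted replicates 1 to 3, against 0.595, 0.864, 0.0864 and 0.0664 FPKM in wildtype replicates 1 to 4. The wildtype libraries formed a higher pair, both BI, and a lower pair, both BM. The means were 1.72 ± 0.675 FPKM in deleted libraries (SD, n = 3) and 0.403 ± 0.393 FPKM in wildtype libraries (SD, n = 4), a 4.27-fold ratio and a difference of 0.97 in mean log2(FPKM + 1), with 0.44 within BI and 1.70 within BM. The ratio was 6.91 without wildtype replicate 2. Within a library the level of Ambn was 13.7, 15.8 and 8.46 times that of Enam in deleted replicates 1 to 3, and 12.6, 3.73, 13.9 and 4.82 times in wildtype replicates 1 to 4. The ranges of this ratio overlapped.

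Amelx (chromosome X, 165614045 to 165625141), the gene of the main enamel protein, was listed at 0.401 FPKM in deleted replicate 2, with a deposited interval of 0 to 0.899 and about 3 inferred fragments, and at 0 in deleted replicates 1 and 3 and in all 4 wildtype libraries. Amelx lies within Arhgap6, a gene for a GTPase-activating protein, in the GRCm38.p6 annotation. Arhgap6 had 2.92, 6.14 and 3.41 FPKM in deleted replicates 1 to 3, against 3.51, 2.77, 2.22 and 1.85 FPKM in wildtype replicates 1 to 4. It was thus highest in the 1 library with an Amelx value, and whether those fragments belong to Arhgap6 was not tested. Odam (chromosome 5, 88314719 to 88321767) and Amtn (chromosome 5, 88805132 to 88814941) were listed at 0 in all 7 libraries. The tables hold no counts, so a limit for these zeros is not given.

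Mmp20, the protease of the secretory stage, was low throughout. Mmp20 (chromosome 9, 7628230 to 7674968) had 0.332, 0.437 and 0.887 FPKM in deleted replicates 1 to 3, against 0.580, 0.464, 0.0248 and 0.0572 FPKM in wildtype replicates 1 to 4. The BI wildtype libraries lay above the BI deleted ones, and the BM wildtype libraries below the BM deleted one. The means were 0.552 ± 0.295 FPKM in deleted libraries (SD, n = 3) and 0.281 ± 0.282 FPKM in wildtype libraries (SD, n = 4), and the difference in mean log2(FPKM + 1) was 0.29, with -0.14 within BI and 0.86 within BM. The mean ratio of 1.96 was 3.03 without wildtype replicate 1. About 2 and 4 inferred fragments stood behind wildtype replicates 3 and 4, whose deposited intervals reach 0.

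Klk4, the protease of enamel maturation, was listed above Mmp20 in every library. The deposited intervals of both genes overlapped in wildtype replicates 2 and 4. Klk4 (chromosome 7, 51136541 to 51141174) had 3.82, 7.496 and 6.01 FPKM in deleted replicates 1 to 3, against 1.49, 0.514, 1.26 and 0.128 FPKM in wildtype replicates 1 to 4. The lowest deleted library was over 2-fold above the highest wildtype library. Behind these values stood 87, 141 and 152 inferred fragments in deleted libraries, against 29, 8, 34 and 3 in wildtype libraries. The deposited interval of wildtype replicate 4 reached 0. The means were 5.77 ± 1.85 FPKM in deleted libraries (SD, n = 3) and 0.847 ± 0.634 FPKM in wildtype libraries (SD, n = 4), a 6.82-fold ratio and a difference of 1.91 in mean log2(FPKM + 1). Its difference was alike within the prefixes, 1.72 within BI and 2.14 within BM. Unlike Enam, Mmp20 and Dspp, Klk4 was not highest in deleted replicate 3, and in wildtype libraries it was at similar levels in replicates 1 and 3. Of the 19 other genes within 200 kb of Klk4, nearly all kallikreins, 1 reached the mean of 1 FPKM: Klk8, a kallikrein of skin and brain. Klk8 had 3.54, 2.56 and 5.26 FPKM in deleted replicates 1 to 3, against 3.18, 2.97, 3.08 and 3.59 FPKM in wildtype replicates 1 to 4, so its groups overlapped. Its difference was 0.15 (SE 0.20, limma adjusted p = 0.834), and -0.06 without deleted replicate 3. Klk7 and Klk9, skin kallikreins 64.8 and 84.4 kb from Klk4 and below that mean, were the 2 of the 19 with all deleted libraries above all wildtype ones. Across all genes kept, 2.85% were so. Klk7 had 0.773, 1.799 and 0.688 FPKM in deleted replicates 1 to 3, against 0.208, 0.609, 0 and 0.200 FPKM in wildtype replicates 1 to 4. Klk9 was at 0.179 to 0.738 FPKM in deleted libraries, against 0.0693 to 0.150 FPKM in wildtype libraries. Of 25 other kallikrein genes listed, 19 stayed below 1 FPKM in every library.

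Dspp, the dentin gene, ranged most widely among the deleted libraries. Dspp (chromosome 5, 104599730 to 104609146) had 2.93, 3.64 and 11.8 FPKM in deleted replicates 1 to 3, against 5.05, 1.06, 0.234 and 0.197 FPKM in wildtype replicates 1 to 4. Wildtype replicate 1 lay above deleted replicates 1 and 2, so the groups overlapped. The means were 6.12 ± 4.93 FPKM in deleted libraries (SD, n = 3) and 1.63 ± 2.31 FPKM in wildtype libraries (SD, n = 4), a 3.75-fold ratio and a difference of 1.57 in mean log2(FPKM + 1), with 0.27 within BI and 3.40 within BM. The ratio was 2.01 without deleted replicate 3 and 12.3 without wildtype replicate 1. Without wildtype replicate 1, Dspp was the fourth gene of the 8 with groups that did not overlap. Inferred fragments numbered 267, 274 and 1227 in deleted libraries, against 393, 66, 26 and 19 in wildtype libraries.

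Of the 5 tested neighbours of Dspp within 200 kb on chromosome 5, the matrix genes Dmp1 and Ibsp were high in the same libraries as Dspp. Dmp1, an acidic matrix protein of dentin and bone 22.5 kb away, had 2.86, 5.73 and 9.30 FPKM in deleted replicates 1 to 3, against 4.97, 1.03, 0.224 and 0.378 FPKM in wildtype replicates 1 to 4. Ibsp, bone sialoprotein, 119 kb away, had 13.7, 25.3 and 47.8 FPKM in deleted replicates 1 to 3, against 23.6, 3.00, 0.741 and 0.854 FPKM in wildtype replicates 1 to 4. In both, as in Dspp, deleted replicate 3 was the highest library and wildtype replicate 1 lay above deleted replicate 1. The differences were 1.60 (SE 0.58) for Dmp1 and 2.66 (SE 0.91) for Ibsp, and neither passed (limma adjusted p = 0.795 for both). Within BI and BM they were 0.55 and 2.99 for Dmp1, and 0.99 and 4.76 for Ibsp. The level of Dspp was 1.03, 0.635 and 1.27 times that of Dmp1 in deleted libraries, and 1.01, 1.03, 1.05 and 0.522 times in wildtype libraries. The other 3 did not share this order of libraries. Sparcl1, a secreted relative of osteonectin 56.6 kb away, was highest in deleted replicate 2 and differed by 0.51 (SE 0.25, limma adjusted p = 0.795). Nudt9, a nucleotide hydrolase gene nearer than Ibsp at 105.3 kb, stayed between 30.4 and 32.3 FPKM in deleted libraries, against 29.2 and 34.0 FPKM in wildtype libraries. Hsd17b11, a steroid dehydrogenase gene 148.9 kb away, had 48.0, 122.6 and 56.7 FPKM in deleted replicates 1 to 3, against 51.3, 41.8, 32.3 and 44.9 FPKM in wildtype replicates 1 to 4, and its groups overlapped. Mepe, a matrix gene of osteocytes, was listed at 0 in every library, and Spp1, osteopontin, differed by 0.03 (SE 0.29, limma adjusted p = 0.975). Of 15 other genes listed with the phosphoprotein family, Sparc and Sparcl1 among them, 5 were tested and 8 were listed at 0 in every library. All 5 had a positive difference (median 0.51, with 0.38 within BI and 0.86 within BM), and none passed. Leaving out deleted replicate 2 gave a median of 0.34. Ibsp, Dmp1, Spp1 and Mepe of this list are counted again among the osteoblast genes below. The 3 tested neighbours of Ambn outside the family, Utp3, Rufy3 and Grsf1, had groups that overlapped. Utp3, a gene of ribosome assembly, had 49.2, 29.4 and 49.2 FPKM in deleted replicates 1 to 3, against 54.1, 44.4, 48.5 and 49.1 FPKM in wildtype replicates 1 to 4. All 10 genes within 200 kb of Odam, casein and salivary genes among them, stayed below 1 FPKM in every library.

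**Figure D3:**
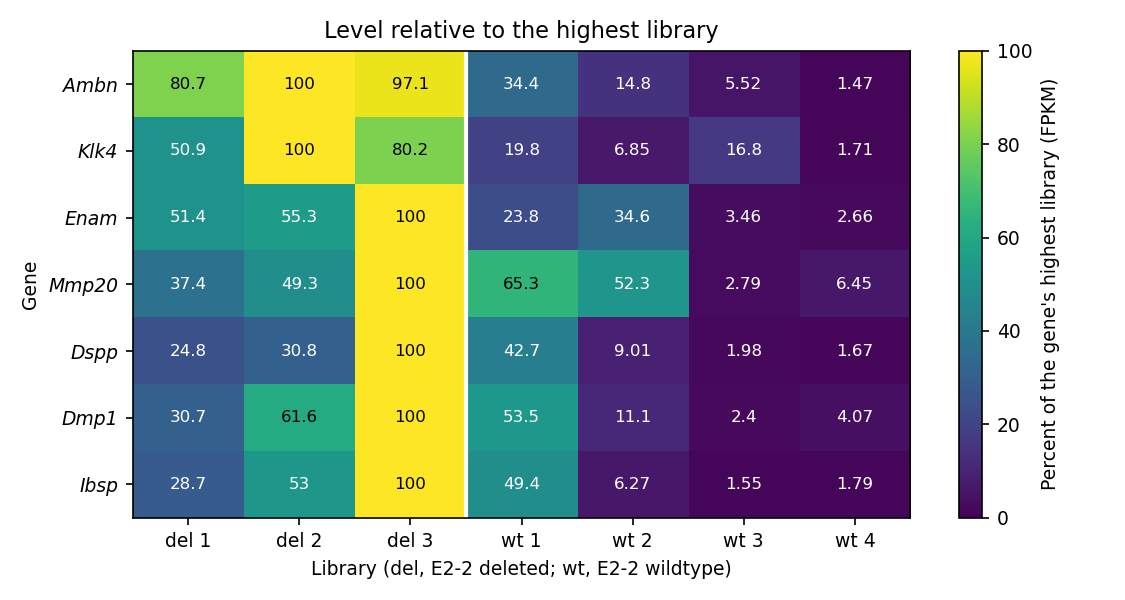
Level of 5 of the genes and of Dmp1 and Ibsp in each library, as a percent of the gene's highest library on the FPKM scale; columns are libraries, with E2-2 deleted (del) left of E2-2 wildtype (wt). Enam, Mmp20, Dspp, Dmp1 and Ibsp peak in deleted replicate 3, Ambn and Klk4 in deleted replicate 2, and wildtype replicates 3 and 4 hold 6.45% or less of the peak except for Klk4 in wildtype replicate 3 (16.8%).

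Among the 5 detected genes, profiles over the 7 libraries (Pearson r of log2(FPKM + 1), a description over libraries of 2 genotypes) were alike to different degrees. Dspp and its neighbour Dmp1, a gene outside the 8, had an r of 0.978, and 0.962 with the genotype means removed. Mmp20 stayed close to Enam (0.866, and 0.949 with the means removed) and to Dspp (0.925 and 0.921). Ambn and Klk4 had an r of 0.919, and 0.621 with the means removed, and Klk4 and Enam 0.811 and 0.217. Klk4 was thus the gene whose likeness to Enam rested most on the genotype means. Ambn made up 49.9% to 67.8% of the summed FPKM of the 8 in deleted libraries, against 41.6% to 52.6% in wildtype libraries.

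Other genes needed for enamel did not move as one. Of 27 other amelogenesis genes in the tables, 19 were tested, 13 with a positive and 6 with a negative difference, and the median was 0.11 (0.17 within BI and 0.27 within BM; leaving out deleted replicate 2 gave 0.05 and leaving out wildtype replicate 2 gave 0.25), where all genes tested had a median of -0.05 and 39.3% were positive. None passed the limma threshold. Car2, a carbonic anhydrase that buffers maturing enamel among many other roles, had 21.2, 25.5 and 28.5 FPKM in deleted replicates 1 to 3, against 16.2, 15.6, 6.76 and 9.27 FPKM in wildtype replicates 1 to 4. It was the 1 of 19 tested genes of this list with all deleted libraries above all wildtype ones, where 2.84% of all genes tested were so, with a difference of 1.08 (SE 0.29, limma adjusted p = 0.795). Sp6, a zinc finger factor required in ameloblasts, averaged 16.98 ± 10.1 FPKM in deleted libraries (SD, n = 3) and 5.63 ± 4.17 FPKM in wildtype libraries (SD, n = 4). Dlx3, a homeobox factor of enamel and hair, averaged 4.29 ± 2.48 FPKM in deleted libraries (SD, n = 3) and 1.40 ± 1.09 FPKM in wildtype libraries (SD, n = 4). Their differences were 1.51 (SE 0.61) and 1.14 (SE 0.46), with overlapping groups. Lama3, a laminin chain of epithelial attachment, differed by 0.47 (SE 0.21). The kinase genes Fam20c and Fam20a, whose products modify secreted matrix proteins, differed by -0.18 and 0.29 (Fam20a below the tested mean), and Wdr72 and Slc24a4, genes of the maturation stage, were below 1 FPKM in every library.

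Most tested factors of the dental epithelium and mesenchyme had a positive difference, and none passed the limma threshold. Of all genes tested, 39.3% had a positive difference, and their median was -0.05. Of 20 epithelial factors, 9 were tested, 7 with a positive difference, and the median was 0.25 (0.12 within BI and 0.39 within BM). Msx2, a homeobox factor of many epithelial buds, had 7.75, 43.3 and 16.2 FPKM in deleted replicates 1 to 3, against 6.33, 8.64, 2.67 and 2.34 FPKM in wildtype replicates 1 to 4. Its highest library, deleted replicate 2, was also the highest for Ambn and Klk4, but not for Enam, Mmp20 or Dspp. Lef1, a partner of beta-catenin, Bmp2, a signalling ligand, and Satb1, a chromatin organiser, differed by 0.84 (SE 0.29), 0.88 (SE 0.36) and 0.25 (SE 0.13). Satb1, Lef1, Krt14 and Trp63 were the 4 of the 20 epithelial factors with all deleted libraries above all wildtype ones. Across all genes kept, 2.85% were so. Krt14, a keratin of basal epithelia, was below the tested mean, with 0.377, 1.75 and 1.01 FPKM in deleted replicates 1 to 3, against 0.330, 0.233, 0.315 and 0.0605 FPKM in wildtype replicates 1 to 4. Krt5, its partner keratin in the same cells, had overlapping groups, with a mean of 0.385 FPKM in deleted libraries and 0.478 FPKM in wildtype libraries. Of 24 mesenchymal genes, 15 were tested, 12 with a positive difference, and the median was 0.30 (0.53 within BI and 0.48 within BM; leaving out wildtype replicate 4 gave 0.19 and leaving out deleted replicate 1 gave 0.50). Msx1, a homeobox factor of dental mesenchyme, averaged 16.95 ± 11.7 FPKM in deleted libraries (SD, n = 3) and 5.05 ± 2.71 FPKM in wildtype libraries (SD, n = 4). Sp7, the osteoblast factor osterix, and Klf4, an odontoblast factor, differed by 1.60 (SE 0.57) and 0.69 (SE 0.25). Pax9, Barx1 and Lhx8, factors of the tooth-forming jaw mesenchyme, were each below 1 FPKM in every library. Barx1 had 0.157, 0.0952 and 0.0706 FPKM in deleted replicates 1 to 3, against 0.367, 0.403, 0.231 and 0.305 FPKM in wildtype replicates 1 to 4. It was the 1 gene of the mesenchymal list whose groups did not overlap, and it was lower in deleted libraries, as were 1.61% of the genes kept. The limma adjusted p was 0.795 for each gene named here that was tested.

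Markers of other cell types and Wnt/beta-catenin target genes were followed in the same libraries. The summed level separated the genotypes for melanocyte genes and for Wnt/beta-catenin target genes, but not for osteoblast or keratinocyte genes. Of 13 melanocyte genes in the tables, none was at 0 throughout and 10 were tested, all with a positive difference (median 1.23, with 0.87 within BI and 2.04 within BM), and 6 had all deleted libraries above all wildtype ones, where 2.84% of all genes tested did and 39.3% were positive. Their summed level was 64.7 to 152.5 FPKM in deleted libraries, against 20.3 to 57.6 FPKM in wildtype libraries. Trpm1, a channel protein that pigment cells make, and Tyr, the rate-limiting enzyme of melanin, differed by 2.62 (SE 0.43) and 1.33 (SE 0.30). All 12 osteoblast genes tested of 15 had a positive difference (median 0.61, with 0.47 within BI and 1.00 within BM). Their list summed to 1403 to 2526 FPKM in deleted libraries, against 1279 to 2380 FPKM in wildtype libraries, with Mepe at 0. The collagen genes Col1a1 and Col1a2 and Spp1 made up most of that sum, with 968, 702 and 697 FPKM in wildtype replicate 3. Overlap of the sum therefore says little of the lower genes of the list. Alpl, an alkaline phosphatase of mineralising cells, differed by 0.86 (SE 0.24). Of 12 keratinocyte genes in the tables, 6 were tested, 5 with a positive difference (median 0.59, with 0.45 within BI and 0.56 within BM), or a median of 0.29 without deleted replicate 2, and the sum was 32.8 to 64.95 FPKM in deleted libraries, against 12.2 to 44.4 FPKM in wildtype libraries. Krt1, a keratin of the upper epidermis, differed by 0.79 (SE 0.27). Of 23 Wnt/beta-catenin target genes, 20 were tested, 17 with a positive difference (median 0.59, with 0.52 within BI and 0.53 within BM), and 10 had all deleted libraries above all wildtype ones, against the same 2.84%. The list summed to 764 to 2383 FPKM in deleted libraries, against 456 to 691 FPKM in wildtype libraries. Without deleted replicate 2 the median of this list was 0.35. Wif1, a secreted Wnt inhibitor, Axin2, a feedback inhibitor, and Notum, which inactivates Wnt ligands, differed by 2.31 (SE 0.61), 1.17 (SE 0.34) and 1.34 (SE 0.41). The fetal kidney genes had 5 of 20 positive differences and a median of -0.46 (-0.30 within BI and -0.46 within BM). That median was -0.03 without deleted replicate 2, the library low in Six2, and -0.78 without deleted replicate 1. None of these genes passed the limma threshold (adjusted p = 0.795 for each gene given with an SE), and the part of other cell types in the levels of the enamel and dentin genes was not tested.

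**Figure D4:**
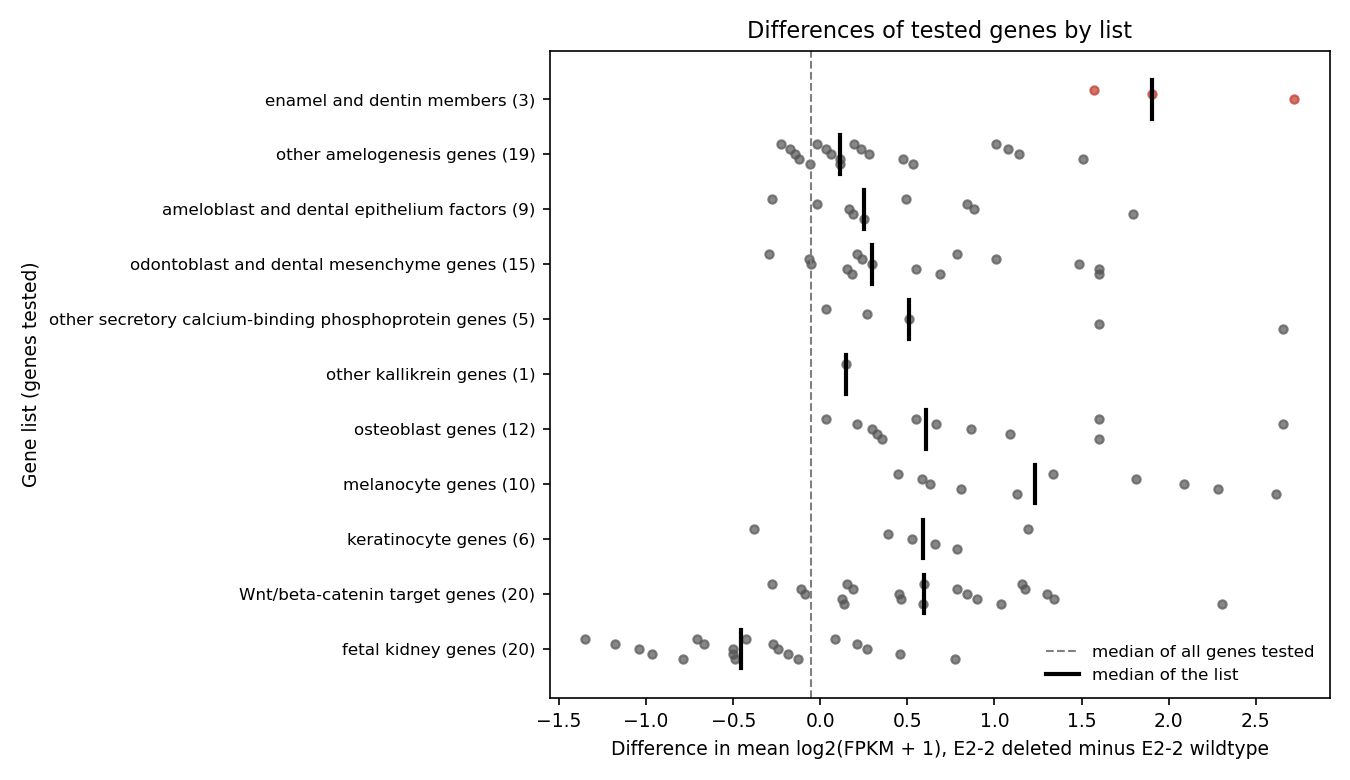
Difference in mean log2(FPKM + 1), E2-2 deleted minus E2-2 wildtype, of every tested gene in 11 gene lists; each point is a gene, black bars are list medians and the dashed line is the median of all genes tested. The 3 tested enamel and dentin genes (red), chosen with these values known, lie between 1.57 and 2.72, and the medians of the other lists run from -0.46 (fetal kidney) to 1.23 (melanocyte).

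The genes whose profile over the 7 libraries was most like the mean profile of the 8 were ranked by Pearson r of log2(FPKM + 1) among 12305 tested genes with an official name. The points are 7 libraries of 2 genotypes, with depth differing among them, so r is a description. The first 8 were Gabrb2, a GABA receptor subunit (r = 0.987), S100a9, a calcium-binding protein of neutrophils (0.985), Ctsh, a lysosomal protease (0.982), Atp6v0d2, a proton pump subunit of osteoclasts (0.978), S100a3, a calcium-binding protein of hair (0.973), Lrrtm1, a synaptic adhesion protein (0.970), Tifa, an adaptor of innate signalling (0.967), and Impact, a regulator of translation (0.966). S100a9 had 25.9, 48.2 and 93.9 FPKM in deleted replicates 1 to 3, against 12.6, 6.44, 4.79 and 0.947 FPKM in wildtype replicates 1 to 4. Its wildtype libraries ranked in the same order as those of Ambn. Ibsp and Dmp1 ranked 12 and 14. For Klk4 alone the closest were Fmod, a collagen-binding proteoglycan (0.985), Nploc4, a cofactor of protein degradation (0.984), and S100a4, a calcium-binding protein of fibroblasts (0.977), and Dmp1 ranked 291. For Ambn alone they were Tifa, S100a9 and Gabrb2 (0.962, 0.961 and 0.960), and for Dspp alone Angpt1, a ligand of the endothelial receptor Tie2 (0.989), Dmp1 (0.978) and Dnase2a, a lysosomal nuclease (0.978).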

How the data were processed

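RNA was measured in 7 libraries, 3 E2-2 deleted and 4 E2-2 wildtype, grouped by the genotype label; replicates bear numbers in deposit order, with no pairing. Whether libraries came from separate animals or cultures is not in the labels, so a p-value measures only the spread between these libraries, and that spread may be technical. For each library the authors deposited 1 table of FPKM per gene, with a lower and an upper bound and a status, per the file headers. The submitters' processing notes list Cufflinks 2.0.2, TopHat2 2.0.4 and CASAVA 1.8.2 with no roles. Build and annotation: not given in the sources used here, so deposited coordinates are printed as they stand.

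Each table had 23699 entries. In the table of deleted replicate 2, spreadsheet dates had replaced 25 symbols, which were taken from another table with the same loci. Entries of one symbol were summed (248 symbols), and 203 genes whose status was not OK throughout and 669 others shorter than 200 bases were left out, which left 22363. Fragments behind a value were inferred by doubling the FPKM, dividing by its distance to the upper bound and squaring. For genes with a single start and under 300 such fragments, 78.9% to 80.2% lay within 0.05 of a whole number, where chance gives 10%. Dividing by depth does not restore precision: low genes in shallow libraries rest on few fragments.

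The 13469 genes with a mean of at least 1 FPKM entered a limma fit (3.58.1, R 4.3.3) of log2(FPKM + 1) (2-sided, mean-variance trend, Benjamini-Hochberg adjusted over the whole table, threshold 0.05); differences are deleted minus wildtype and understate the change of low genes. On simulated data of the same 13469 genes, 68% of the genes changed by 1 on the log2 scale and 90% of those changed by 2 were recovered, with 10 false calls over all fold sizes simulated. The changed genes were drawn only from those with a mean log2(FPKM + 1) above 3, with independent normal noise. Recovery of lower genes such as Klk4 and Dspp was therefore not simulated. The 8 genes and all lists were chosen with earlier results of these data known, and the difference of the 8 was not tested. Some lists share genes, among them Dmp1, Sp7 and Lef1, so the lists are not independent. Genes named were the 8, up to 4 of smallest p in each list, the genes of closest profile, neighbours within 200 kb, Ctnnb1 and Tcf4. The further list genes named (Fam20c, Fam20a, Wdr72, Slc24a4, Krt14, Krt5, Trp63, Pax9, Barx1, Lhx8, Spp1, Mepe, Six2, Col1a1, Col1a2) were picked after their values were seen. Ctnnb1, the beta-catenin gene, averaged 576 ± 62.0 FPKM in deleted libraries (SD, n = 3) and 460 ± 56.2 FPKM in wildtype libraries (SD, n = 4). Alternatives were a pseudocount of 0.1, other scalings and filters, the name prefix as a term or as a subset, and leaving out each library.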

Additional observations from a re-analysis of the deposited data

Results flagged for a closer look

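Mmp20 had a negative difference within the BI libraries, -0.14 on the log2(FPKM + 1) scale, and a positive one within the BM libraries, 0.86, with every library on its side; the change of direction was not tested, and the BM libraries hold 1 deleted library. Among the wildtype libraries, replicate 1 stood apart from the others in Ibsp and Dmp1 on the FPKM scale. Its gap to the next library was 0.90 of the whole range in Ibsp and 0.83 in Dmp1, the latter just past Dixon's critical value for 4 libraries. The FPKM scale spreads high values more than the log2(FPKM + 1) scale of the differences, on which no such ratio is given. Among 49 groups examined, chance flags about 1 in 20. Without that library Dspp, which had the same high value there, had groups that did not overlap.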

How the results depend on the processing

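No paired analysis was possible because the replicate numbers follow the order of deposit and the labels give none. Leaving out 1 library at a time kept the difference of Klk4 between 1.69 and 2.13, of Ambn between 2.30 and 3.19, of Enam between 0.78 and 1.12, of Mmp20 between 0.14 and 0.40, of Dspp between 1.04 and 2.09, of Amelx between 0 and 0.24 and of the mean of the 8 genes between 0.81 and 1.12. With a pseudocount of 0.1 the differences were 2.93 for Klk4, 2.20 for Enam, 1.05 for Mmp20, 0.77 for Amelx and 1.61 for the mean. Within BI they were 1.78 for Ambn, 0.44 for Enam, -0.14 for Mmp20, 0.27 for Dspp and 0.54 for the mean, and within BM 3.70, 1.70, 0.86, 3.40 and 1.47. The count of the 8 genes whose deleted libraries all lay above the wildtype ones was 3, 3 to 4 without 1 library, and 5 within BM, where 32% of the genes kept did so, alternatives chosen after seeing the data. With no filter, 1 gene of the whole table passed, at an adjusted p of 0.00084 by limma (Ndufs5, a respiratory chain subunit, at nearly identical values close to 0 in the wildtype libraries), and 1000 had an unadjusted p under 0.05. That count was 394 at a mean of at least 5 FPKM and 231 to 1473 without 1 library (231 without deleted replicate 2, 347 without wildtype replicate 4, 1473 without deleted replicate 1). At a mean of at least 5 FPKM the median of the dental epithelium factors was 0.84 and that of the melanocyte genes 1.95; with a pseudocount of 0.1 the melanocyte median was 1.86. Under the alternatives, 226 values stayed within the spread between libraries or, for counts, within 1.5 times. Of these, 13 each belong to Odam and Amtn, which are at 0 in every library and could not move. A further 19 moved by more, and of the counts over all genes 3 grew and 3 shrank by over 1.5 times. Scaling changed no direction of the 8 genes. Low levels limit Klk4, Mmp20, Enam and Amelx in wildtype libraries.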
